A study of Mus musculus with 6 samples.

Results

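The genes described here are interleukin 10 (IL-10), transforming growth factor beta 1 (TGF-beta 1) and the receptor chains for these and other cytokines that restrain macrophages, in BV-2 cells with and without lipopolysaccharide (LPS). They were given as a list of 10 genes, and a gene was measured where a row of the expression table was annotated with that gene alone. The rule found 9 of the 10, each with 1 row, out of 41345 rows in all. No row named Il2rg, the common gamma chain, so it is not analysed here. BV-2 is a mouse microglial line immortalised by a retrovirus carrying raf and myc oncogenes, so each group is 1 transformed line and not brain tissue, and microglia are the macrophages of the brain. Control cells had no LPS, and the other group received LPS of Escherichia coli O111:B4 at 1 µg/mL, with 24 h given as the time. Both groups were plated in medium with reduced serum. There were 3 arrays per group, and the labels do not tell whether these were separate cultures. The p-values therefore rest on array-to-array spread alone, and that spread may be technical.

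IL-10 is released by activated macrophages and acts back on them through a receptor made of IL-10RA, which binds the cytokine, and IL-10RB, a chain shared with other receptors. The receptor signals through the kinases JAK1 and TYK2 to STAT3, and this dampens the transcription of inflammatory genes. TGF-beta 1 is stored as a latent complex, binds the receptor TGFBR2, which recruits the kinase TGFBR1, and signals through SMAD proteins. It maintains the resting state of microglia in the brain. IL-4 and IL-13 act through IL-4RA, paired with IL-13RA1 or with the common gamma chain, and through STAT6, and they switch on the alternative activation genes of macrophages, among them arginase 1. The IL-21 receptor also uses the common gamma chain.

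Stretches of promoter are shown for 3 receptor genes because they hold the contrasts met below. Il4ra and Il21r lie next to each other on chromosome 7, with 0 annotated genes between them, and yet the array signal of the first was above background and that of the second was not. Il13ra1 was the sole gene of the group whose LPS arrays all lay above its controls. Over all rows this was so in 7.74%, so a count of 1 of 9 genes does not set the group or the gene apart. Each sequence is the 250 bases before the RefSeq start of the gene (GRCm38.p6), 5′ to 3′ on the gene's strand, with CG dinucleotides in capitals.
Il4ra (chr7:125552021-125552270, + strand): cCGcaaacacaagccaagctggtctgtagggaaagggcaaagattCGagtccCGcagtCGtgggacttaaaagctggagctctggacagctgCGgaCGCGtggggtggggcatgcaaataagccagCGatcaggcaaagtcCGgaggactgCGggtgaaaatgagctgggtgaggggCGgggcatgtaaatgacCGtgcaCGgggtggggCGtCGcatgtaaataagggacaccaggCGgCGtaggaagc
Il13ra1 (chrX:36111858-36112107, + strand): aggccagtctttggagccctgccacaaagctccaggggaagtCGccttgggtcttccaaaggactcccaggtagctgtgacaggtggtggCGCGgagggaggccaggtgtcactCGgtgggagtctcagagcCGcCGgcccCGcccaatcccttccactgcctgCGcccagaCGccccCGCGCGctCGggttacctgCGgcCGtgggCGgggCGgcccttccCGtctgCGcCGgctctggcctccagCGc
Il21r (chr7:125603179-125603428, + strand): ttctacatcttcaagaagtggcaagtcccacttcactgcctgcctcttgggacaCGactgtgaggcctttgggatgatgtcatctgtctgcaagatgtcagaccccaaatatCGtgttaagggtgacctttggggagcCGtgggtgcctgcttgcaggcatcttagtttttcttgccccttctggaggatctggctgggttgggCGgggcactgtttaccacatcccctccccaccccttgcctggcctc
The Il4ra stretch holds 17 CG dinucleotides and the Il13ra1 stretch 21, whereas the Il21r stretch holds 4. The median over all 32851 promoter windows of the table was 6. Of all windows, 23.5% have at least as many as Il4ra, 16.3% as many as Il13ra1 and 62.2% as many as Il21r. The stretch of Tgfb1 also holds 21, that of Tgfbr2 holds 12 and that of Il2rg holds 3. The 2 stretches of Tgfbr1 hold 29 and 3, and this gene was above background. These counts are a description of the sequences, and their part in the array levels was not tested.

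Windows from 250 bases before to 50 after the start were searched on both strands for motifs of factors downstream of these cytokines and of LPS. The table had 8 windows for 7 of the 10 listed genes, namely Tgfbr1 with 2 windows, and Tgfb1, Tgfbr2, Il4ra, Il13ra1, Il21r and Il2rg with 1 each. The STAT dimer motif TTCNNNGAA was in 0 of the 8 windows and in 8.30% of all windows. The STAT6 form TTCNNNNGAA was in 0 of the 8 and in 6.95% of all. The SMAD motif CAGACA was in 2 of the 8, 1 window of Tgfbr1 and that of Il21r, and in 21.0% of all. The NF-kB motif was in 1 of the 8, that of Il4ra, and in 4.51% of all. That match reads GGAAAGCCCC on the gene's strand, is the motif on the opposite strand, and begins at base 21 after the start. A match is not a shown binding site, and its absence says only that the letters are not in the window.

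The values are log2 expression per transcript cluster, a group of probes for 1 transcription unit. As a guide to background, the 95th percentile of 1443 rows for olfactory, vomeronasal and taste receptors was 3.08. All 12 microglia and macrophage markers of a fixed list lay above it, with list means of 7.97 to 8.24 in the controls and 8.08 to 8.54 with LPS. Of 32 measured markers of 7 other lists (T, B and NK cells, astrocytes, neurons, oligodendrocytes, and fibroblasts or endothelium) 4 lay above it, the highest being Pdgfrb at 3.49. The means of those lists ran from 2.22 to 2.99 in the controls and from 2.22 to 3.01 with LPS. LPS had acted on the cells, since Acod1, which makes itaconate, rose by 6.60 log2 units (SE 0.29; adjusted p = 0.0012 in limma) and Il6 by 5.01 (SE 0.20; adjusted p = 0.00098). Control replicate 2 stood apart: over rows with a mean above 5 its median difference from the other controls was -0.44, and over 19060 rows above background it was the lowest control in 59.7%. Over all rows it correlated with the other controls at Pearson's r of 0.960 and 0.959 and with LPS replicate 3 at 0.968. On control replicate 2 Acod1 was at 3.44 and Il6 at 1.61, where the LPS arrays had 10.65 to 10.80 and 6.69 to 7.11. Whether the label or the culture of this array differed is not known. LPS replicate 3 was the highest LPS array in 48.5% of the rows above background. Its median difference from the other LPS arrays over rows above 5 was 0.095, so it did not stand apart on that measure. That of LPS replicate 1 was -0.22 and that of LPS replicate 2 was 0.13, both larger in size. By Pearson's r over all rows, LPS replicate 3 had 0.966 and 0.973 with LPS replicates 1 and 2, which had 0.979 with each other. Values without single arrays are given for several genes.

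The log2 fold changes of the 9 measured genes ran from -0.34 for Il10 to 0.63 for Il4ra, smaller in size than those of Acod1 and Il6. None of the 9 passed (limma, Benjamini-Hochberg adjusted p under 0.05 over all rows), with 0 higher and 0 lower, where 0.193% of all rows were called. A count of 0 is near that share, so it does not set these genes apart from other rows. Before adjustment 1 gene, Il13ra1, was higher with p under 0.05 and 0 were lower, where 4.98% of all rows were higher and 1.40% lower at that p. In bulk RNA a lower level per cell and a smaller share of expressing cells cannot be told apart. The median log2 fold change of the 9 was 0.09, and that of all rows 0.03. For the 7 genes above background it was 0.17, beside 0.11 for the 19060 rows above background. In 8 of the 9 the LPS and control arrays overlapped. LPS lay wholly above control in 1 gene and wholly below in 0, where 7.74% and 3.48% of all rows did so. A count of 0 is read together with the intervals: the 95% interval of the change, not adjusted for the number of genes, lay inside a 2-fold change in either direction for 8 of the 9, all but Il4ra. For the 6 of these above background the interval bears on the size of the change. For Il10 and Il21r, near background, it describes a signal that may hold little of the transcript, so no bound on the gene follows. In simulated data with the real means and spread, the same test called 22% of rows changed by 1 log2 unit and 70% of rows changed by 2. At 3 log2 units it called 86%. The test could therefore miss changes of 1 log2 unit and larger ones too. The changed rows were drawn from all rows, bright or dim, and the simulated arrays had no shift of a whole array. These shares are therefore not those of the 9 genes.

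**Figure D1:**
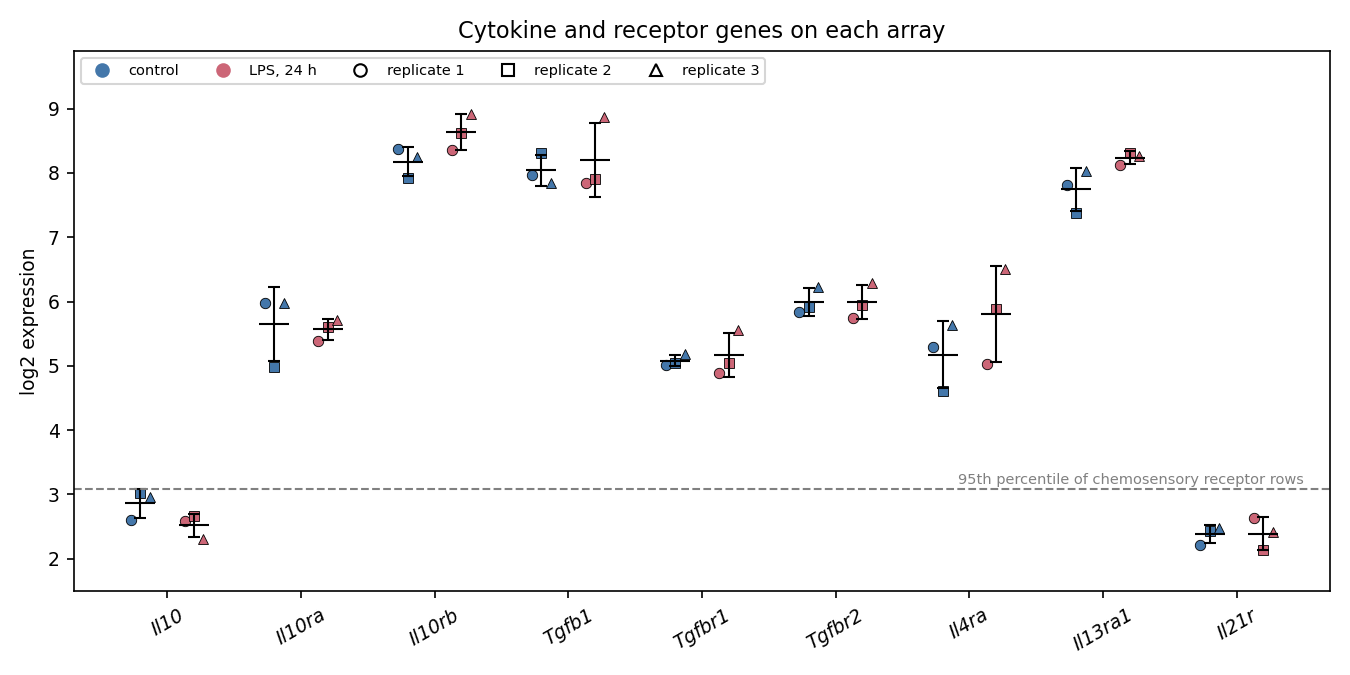
Log2 expression of the 9 measured genes on each array, with controls in blue and LPS in red, symbols for the replicate, and a black bar for the group mean with the SD of 3 arrays. Il10 and Il21r lie below the dashed line, the 95th percentile of chemosensory receptor rows (3.08), and Il13ra1 is the single gene whose LPS arrays all lie above its controls. Over all rows 7.74% lie so.

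Il10, the cytokine itself, was not measurable above background in either group. Its values were 2.61, 3.02 and 2.96 in control replicates 1 to 3 and 2.58, 2.66 and 2.31 in LPS replicates 1 to 3. All 6 lay under the receptor-row limit, the groups overlapped, and the LPS arrays were the lower on average. Means were 2.86 ± 0.22 and 2.52 ± 0.18 (SD, n = 3), and the log2 fold change of -0.34 (SE 0.18) did not pass (limma adjusted p = 0.89). A rise of Il10 after LPS was therefore not seen at 24 h, and a level too low for this array cannot be told apart from none.

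Both chains of the IL-10 receptor were above background, and neither passed. Il10ra, the ligand-binding chain, had 5.98, 4.99 and 5.97 in the controls and 5.39, 5.61 and 5.71 with LPS. The LPS values lay between control replicate 2 and the other controls. Its log2 fold change was -0.08 (SE 0.29, limma adjusted p = 1.00, 95% interval -0.77 to 0.62), and it was -0.41 without control replicate 2 and 0.089 without control replicate 1. Il10rb, the shared chain, had 8.37, 7.92 and 8.24 in the controls and 8.36, 8.62 and 8.91 with LPS. LPS replicate 1 was level with the highest control and the other LPS arrays were above all controls. LPS over control gave 0.45 (SE 0.20, limma adjusted p = 0.83), a 1.37-fold difference with a 95% interval of 0.98-fold to 1.91-fold, and it did not pass. With 1 array left out the log2 value ran from 0.31 to 0.59.

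Tgfb1, the TGF-beta ligand, was strongly expressed in both groups. Its values were 7.96, 8.31 and 7.84 in the controls and 7.84, 7.90 and 8.86 with LPS. LPS replicate 3 alone was high, and the other LPS arrays lay at the level of control replicates 1 and 3. The log2 fold change of 0.17 (SE 0.30; adjusted p = 1.00 in limma, 95% interval -0.55 to 0.88) became -0.17 without LPS replicate 3 and 0.34 without LPS replicate 1. Tgfbr1, the signalling kinase of the receptor, had 5.02, 5.04 and 5.18 in the controls and 4.89, 5.05 and 5.55 with LPS. The groups overlapped, again with LPS replicate 3 as the highest array. Its log2 fold change was 0.09 (SE 0.20, limma adjusted p = 1.00), or -0.11 without LPS replicate 3. Leaving out LPS replicate 1 in its place gave 0.22. Tgfbr2, the ligand-binding kinase, had 5.83, 5.92 and 6.23 in the controls and 5.75, 5.95 and 6.28 with LPS. Control and LPS means were both 5.99, with SDs of 0.21 and 0.27 (n = 3). The 95% interval of its fold change, 0.73-fold to 1.38-fold, was the narrowest of the TGF-beta genes.

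The receptor chains for IL-4 and IL-13 had the highest fold changes of the group, and neither passed. Il4ra, the IL-4 binding chain, had 5.29, 4.61 and 5.63 in the controls and 5.03, 5.89 and 6.51 with LPS. The groups overlapped, with control replicate 2 lowest and LPS replicate 3 highest, and LPS replicate 1 below control replicates 1 and 3. The log2 fold change was 0.63 (SE 0.42, limma adjusted p = 0.97), a 1.55-fold difference with a 95% interval of 0.77-fold to 3.12-fold. Leaving out control replicate 2 gave 0.35, leaving out LPS replicate 3 gave 0.28, and leaving out both gave -0.0033. In the other direction, leaving out LPS replicate 1 gave 1.02 and leaving out control replicate 3 gave 0.86. None of these passed, with a lowest limma adjusted p = 0.68 with 1 array left out. Il13ra1, which pairs with IL-4RA to bind IL-13, had 7.81, 7.38 and 8.04 in the controls and 8.12, 8.31 and 8.27 with LPS. All LPS arrays lay above all controls, LPS replicate 1 by less than 0.1 over control replicate 3. Means were 7.74 ± 0.34 and 8.23 ± 0.10 (SD, n = 3). The log2 fold change of 0.49 (SE 0.20) had an unadjusted p of 0.0428 in limma and an adjusted p = 0.75, and was 0.31 without control replicate 2, 0.64 without control replicate 3 and 0.30 after quantile normalization.

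Il21r, the receptor for the lymphocyte cytokine IL-21, was at background in both groups. It had 2.22, 2.43 and 2.48 in the controls and 2.63, 2.13 and 2.41 with LPS, all under the limit. Its change was 0.01 on the log2 scale (SE 0.18, limma adjusted p = 1.00). Its neighbour Il4ra was above the limit on all arrays. As the CG counts above show, the start of Il21r is poorer in CG than that of Il4ra. So is 1 of the 2 stretches of Tgfbr1, a gene above background, while its other stretch holds 29 CG dinucleotides. The part of CG content in these levels was not tested.

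**Figure D2:**
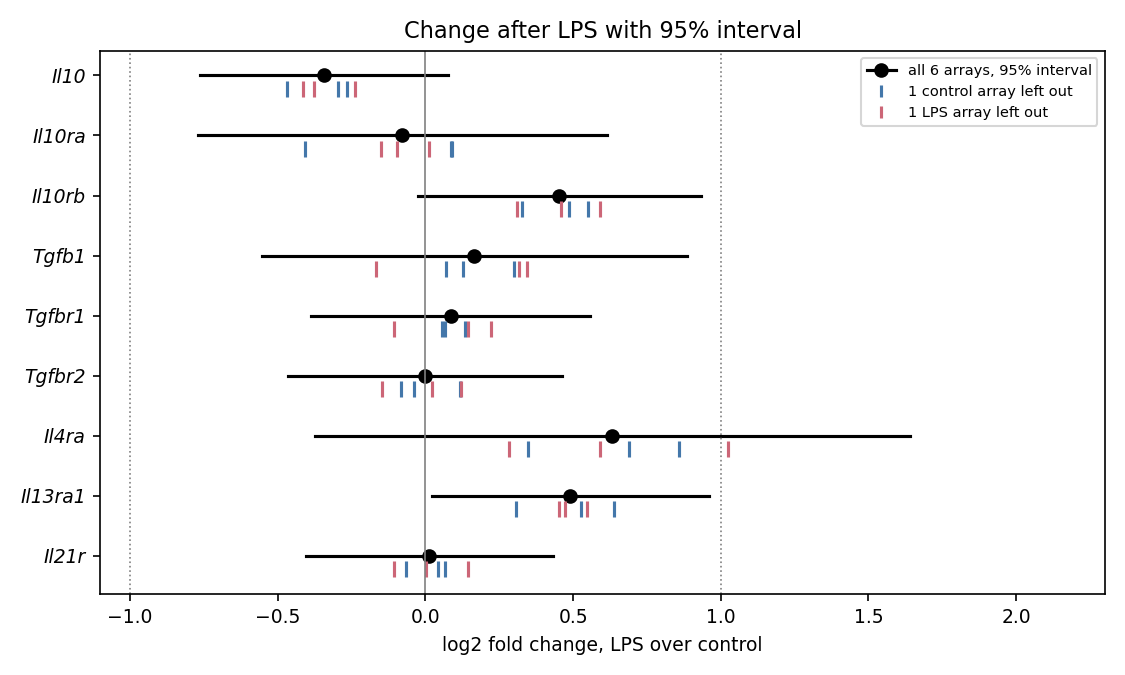
Log2 fold change of LPS over control for the 9 genes, with black points and 95% intervals from limma on 6 arrays, and short ticks for the value with 1 control (blue) or 1 LPS array (red) left out; dotted lines mark a 2-fold change. Only the interval of Il4ra reaches beyond 2-fold, and Tgfb1, Tgfbr1, Tgfbr2, Il10ra and Il21r lie on both sides of 0 depending on the array left out.

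Single arrays weighed unequally on these genes. Of the 7 genes above background, LPS replicate 3 was the highest LPS array for 6, all but Il13ra1, and over all rows above background this was so in 48.5%. Control replicate 2 was the lowest control for 4, a share near the 59.7% over those rows. LPS replicate 3 exceeded the mean of the other LPS arrays by 1.05 for Il4ra, 0.99 for Tgfb1, 0.58 for Tgfbr1, and 0.43 for both Il10rb and Tgfbr2. Control replicate 2 differed from the mean of the other controls by -0.99 for Il10ra, -0.86 for Il4ra and -0.55 for Il13ra1. For Tgfbr1 and Tgfbr2 that difference was -0.057 and -0.11, and for Tgfb1 it was 0.41, in the other direction. The part of a deviation of the whole array in these values was not tested, other than by the alternatives given.

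A difference between 2 genes on the same array removes a shift common to both. This was taken for 5 pairs of receptor chains or of ligand and receptor, and the change in the difference was tested by an exact two-sided permutation test, whose smallest possible p with 3 against 3 arrays is 0.10. For Il10ra minus Il10rb the controls had -2.39, -2.93 and -2.27 and the LPS arrays -2.97, -3.01 and -3.20. The balance lay lower on every LPS array than on any control, with control replicate 2 closest to the LPS arrays. The change of -0.53 had an exact p of 0.10, the smallest the design allows, and 0.50 after Benjamini-Hochberg adjustment over the 5 pairs, so it did not pass. It was between -0.73 and -0.40 with any 1 array left out and -0.51 after quantile normalization, where the exact p was 0.30. For Tgfbr1 minus Tgfbr2 the change was 0.09 (exact p = 0.50), with all 6 values between -1.06 and -0.73. The 2 chains of the TGF-beta receptor thus kept their balance within 0.325 log2 units across arrays of both groups. The other changes were 0.14 for Il4ra minus Il13ra1 (exact p = 0.80), -0.27 for Il10 minus Il10ra (exact p = 0.80) and 0.08 for Tgfb1 minus Tgfbr1 (exact p = 0.70). A further 2 pairs with Il2rg could not be taken.

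**Figure D3:**
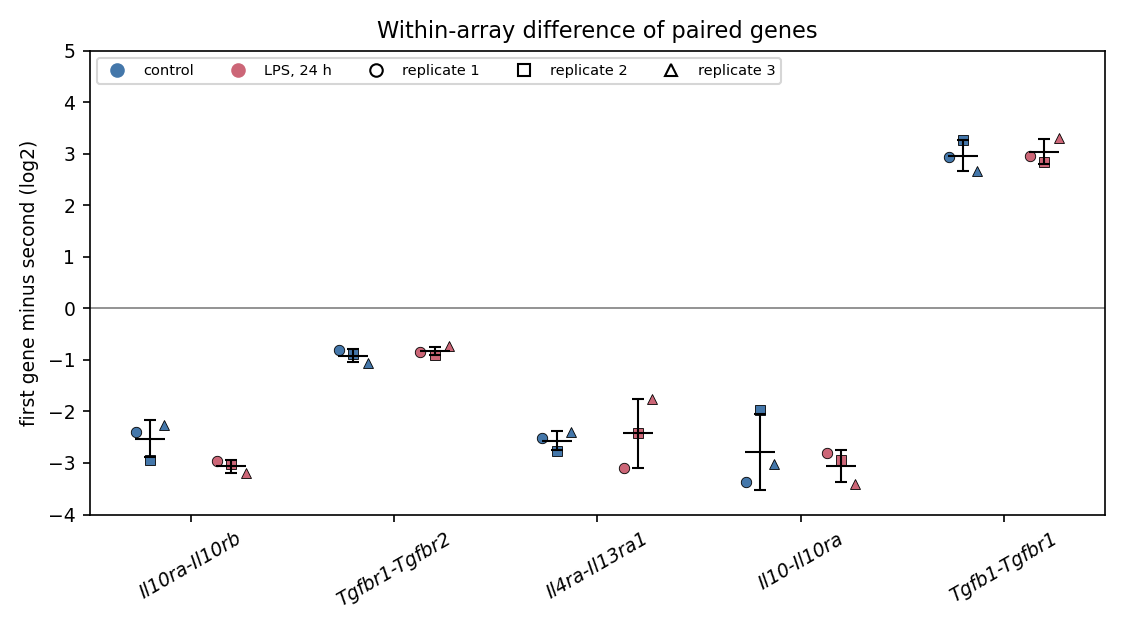
Within-array difference in log2 expression, first gene minus second, for 5 pairs, with controls in blue, LPS in red, and the mean with SD of 3 arrays in black. Only for Il10ra minus Il10rb do the LPS arrays (-3.20 to -2.97) lie wholly below the controls (-2.93 to -2.27); the height of a pair depends on the probes and only the change between groups is read.

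Further genes of these pathways were taken from 5 lists with 100 entries, of which 97 had a row. Of these 97, 1 passed. Among 17 genes of the IL-10 family and its signalling, 10 of them above background, 1 rose, 0 fell and 16 did not pass. The median log2 fold change of the 17 was 0.31, beside 0.03 for all rows and 0.11 for rows above background. The gene that rose was Bcl3, a nuclear NF-kB cofactor that IL-10 can induce and that TLR signalling also induces. Bcl3 had 3.71, 4.02 and 4.01 in the controls and 6.13, 6.02 and 6.13 with LPS, so the groups were far apart. Its log2 fold change was 2.18 (SE 0.15, limma adjusted p = 0.0054), with adjusted p = 0.060 without LPS replicate 2. The other genes named by rule were the kinase Jak1, with 8.06 ± 0.54 and 8.48 ± 0.16 (SD, n = 3; limma adjusted p = 0.96), and Zfp36, which promotes decay of cytokine mRNA, with 7.46 ± 1.28 and 8.08 ± 0.49 (adjusted p = 1.00). Zfp36 had 5.98 in control replicate 2 and 8.18 and 8.22 in the other controls.

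At an unadjusted p under 0.05 this list had 5 higher and 0 lower genes, and LPS lay wholly above control in 5 and wholly below in 3. The 3 below were Il20ra, Il22ra1 and Il22ra2, with means of 2.17, 2.35 and 1.76, all under the background limit. Of all rows 4.98% were higher and 1.40% lower at that p, and 7.74% lay wholly above and 3.48% wholly below. The following were chosen after their values were seen. The feedback inhibitor Socs3, a STAT3 target, had 3.81, 3.63 and 4.00 in the controls and 4.76, 5.01 and 4.69 with LPS (log2 fold change 1.00, SE 0.16, limma adjusted p = 0.14). Tyk2, the kinase bound to IL-10RB, had 5.79, 4.95 and 5.43 in the controls and 6.23, 6.61 and 6.54 with LPS (1.07, SE 0.24, adjusted p = 0.32). The LPS arrays of both were above all controls. Stat3 had 6.98 ± 0.61 and 7.64 ± 0.22 (SD, n = 3; adjusted p = 0.85), with overlapping groups. Il20rb, a chain of receptors for other IL-10 family members, had 3.36 ± 0.14 and 4.03 ± 0.16 (adjusted p = 0.32). Sbno2 had 4.62 ± 0.15 and 5.48 ± 0.46 (limma adjusted p = 0.50), with LPS arrays above all controls. For Nfil3 and Etv3, both above background, the groups overlapped. Their log2 fold changes were 0.08 (SE 0.41) and 0.31 (SE 0.25), and neither passed. The other cytokines of the family on the list, Il19, Il20, Il22 and Il24, were under the background limit.

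**Figure D4:**
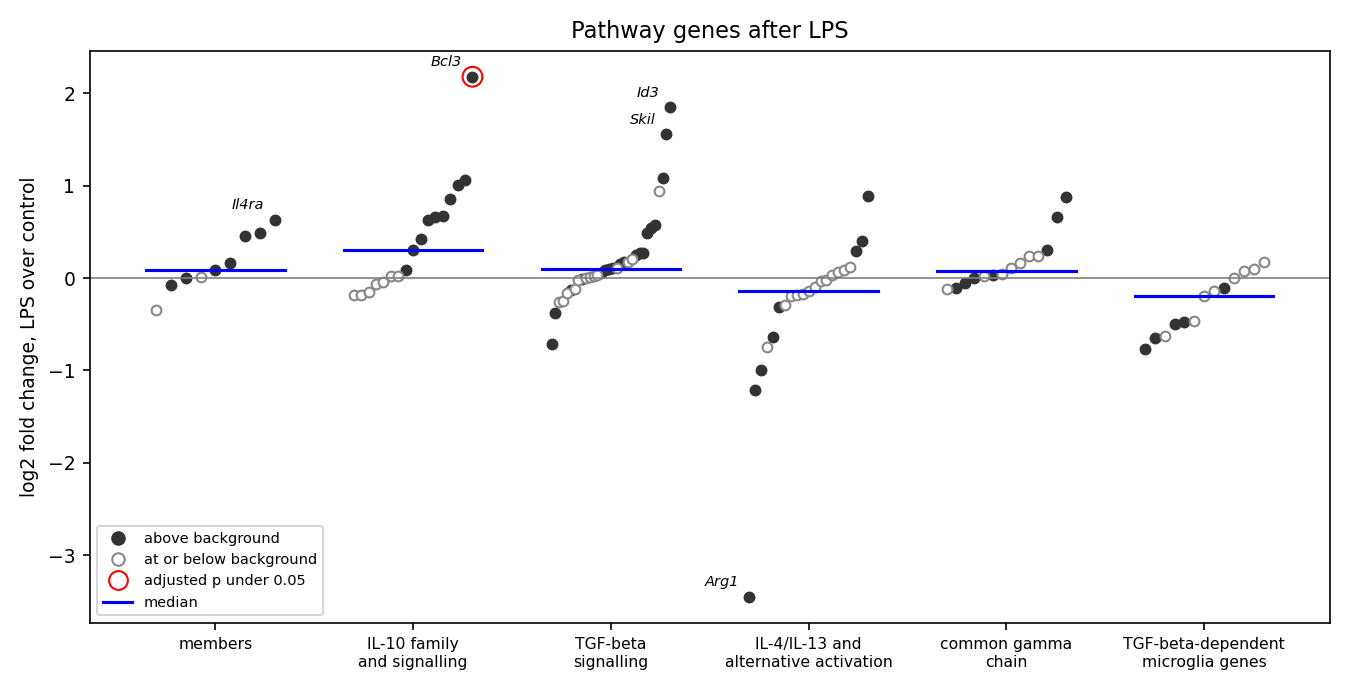
Log2 fold change of LPS over control for the 9 members and for the measured genes of 5 pathway lists, filled where the mean over 6 arrays is above background and open otherwise, with the list median in blue and genes past adjusted p 0.05 ringed in red. Bcl3 (2.18) is the single ringed gene, list medians run from -0.20 to 0.31, and the lowest point, Arg1 (-3.45), did not pass.

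Of 32 measured TGF-beta signalling genes 0 passed in limma, with a median of 0.10. At an unadjusted p under 0.05, 6 were higher and 1 was lower, and LPS lay wholly above control in 6 and wholly below in 1, beside 4.98% higher, 1.40% lower, 7.74% above and 3.48% below over all rows. The 3 most abundant were the integrin chain Itgav, which takes part in activating latent TGF-beta (9.16 ± 0.43 and 9.03 ± 0.11, SD, n = 3), the SMAD target Id2 (8.03 ± 1.28 and 8.28 ± 0.29), and the protease Furin, which processes the TGF-beta precursor (7.16 ± 0.90 and 7.43 ± 0.17). Each had a limma adjusted p = 1.00. Control replicate 2 was low for Id2, at 6.56 against 8.70 and 8.85, and for Furin, at 6.12 against 7.63 and 7.71. Their log2 fold changes, 0.25 and 0.27, were -0.49 and -0.24 without that array. Nrros, which holds latent TGF-beta 1 on the surface of microglia, had 6.64, 6.63 and 6.57 in the controls and 5.73, 6.09 and 6.90 with LPS (log2 fold change -0.38, limma adjusted p = 0.98) and was chosen after its values were seen. Its change was -0.71 without LPS replicate 3 and -0.12 without LPS replicate 1.

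The list's 7 genes with an unadjusted p under 0.05, chosen after their values were seen, were Id3, Skil, Smurf1, Thbs1, Smad7 and Tgif1, which were higher, and Bambi, which was lower. The transcriptional regulator Id3 had 2.64, 3.07 and 3.20 in the controls, at background, and 5.32, 5.19 and 3.95 with LPS, with LPS replicate 3 nearest the controls. Its log2 fold change of 1.85 (SE 0.38; adjusted p = 0.26 in limma) was 2.28 without LPS replicate 3 and passed there (adjusted p = 0.041). Skil (SnoN), a repressor of SMAD transcription, had 4.10, 3.49 and 4.42 in the controls and 5.47, 6.08 and 5.15 with LPS (1.56, SE 0.32, adjusted p = 0.26). Smurf1, a ubiquitin ligase for SMAD and receptor proteins, had 4.96 ± 0.31 and 6.04 ± 0.27 (SD, n = 3; adjusted p = 0.25). Bambi, a decoy receptor of the TGF-beta family, had 5.13, 4.39 and 4.97 in the controls and 3.93, 4.24 and 4.17 with LPS (-0.72, SE 0.22, adjusted p = 0.55). Thbs1, thrombospondin 1, which can activate latent TGF-beta, had 2.10, 2.08 and 2.36 in the controls and 3.18, 3.45 and 2.73 with LPS, with a mean under the background limit (0.94, SE 0.21, adjusted p = 0.32). The inhibitory Smad7 (0.54, SE 0.22) and the corepressor Tgif1 (0.57, SE 0.24) had limma adjusted p of 0.76 and 0.77. For other inhibitors and targets on the list the log2 fold changes were 0.11 for Smad6, 0.098 for Ski, -0.0085 for Smurf2, -0.0026 for Id1 and -0.11 for Tgfbi, each with a limma adjusted p = 1.00. Of these, Smad6, Id1 and Tgfbi had means of 2.84, 2.45 and 2.54, under the background limit, so no bound on these genes follows. For Id3, Skil, Smurf1, Thbs1 and Tgif1 all LPS arrays lay above the controls and for Bambi below, while none passed over all rows with 6 arrays.

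Of 21 genes of IL-4 and IL-13 signalling and alternative activation 0 passed in limma, with a median of -0.14, and 8 had a mean above background. At an unadjusted p under 0.05, 0 were higher and 4 lower, and LPS lay wholly below control in 2 and wholly above in 1. The shares over all rows were 1.40% lower, 4.98% higher, 3.48% wholly below and 7.74% wholly above. Ccl24, counted among the lower genes and those wholly below, had a mean of 2.79, under the background limit. The gene wholly above was Ccl22, at 4.95 on LPS replicate 3 but at 2.91 and 2.74 on LPS replicates 1 and 2, near the controls. Arg1, arginase 1, which turns arginine into ornithine, had 10.23, 4.82 and 10.32 in the controls and 4.90, 5.47 and 4.66 with LPS. Control replicate 2 thus lay at the level of the LPS arrays, and the other controls more than 4 log2 units above. The log2 fold change of -3.45 (SE 1.42) did not pass (limma adjusted p = 0.76). Without control replicate 2 it was -5.27 (SE 0.26) and passed (adjusted p = 0.0046), as it did with LPS replicate 3 left out as well (-5.09, adjusted p = 0.0032). On control replicate 2 the LPS response genes Acod1, Il1b and Il6 were not raised, at 3.44, 2.75 and 1.61, under both other controls for each.

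The other 2 abundant genes of this list were Mrc1 and Stat6. Mrc1, the mannose receptor, had 8.98, 8.38 and 9.15 in the controls and 7.46, 7.76 and 8.29 with LPS (log2 fold change -0.9999, SE 0.29, limma adjusted p = 0.49). Every LPS array was below every control, LPS replicate 3 by less than 0.1. Stat6, the factor that IL-4RA activates, had 7.70, 6.90 and 7.82 in the controls and 6.88, 7.13 and 7.49 with LPS, and the groups overlapped (-0.31, SE 0.29, adjusted p = 1.00). Without control replicate 2 the values were -1.23 for Mrc1 and -0.60 for Stat6. The ligands Il4 and Il13 and the decoy chain Il13ra2 were under the background limit.

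**Figure D5:**
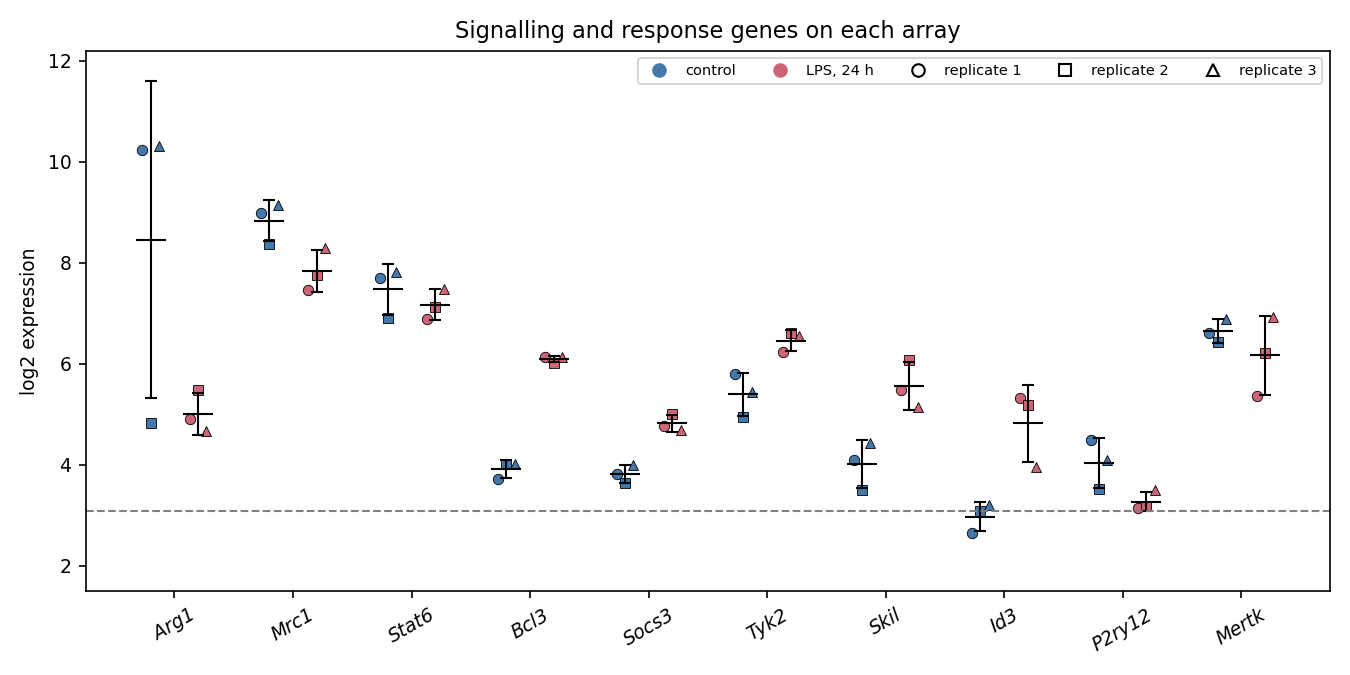
Log2 expression of 10 signalling and response genes on each array, with controls in blue, LPS in red, symbols for the replicate, and the mean with SD of 3 arrays in black; the dashed line is the background limit of 3.08. Control replicate 2 of Arg1 (4.82) lies with the LPS arrays (4.66 to 5.47) and away from the other controls (10.23 and 10.32), and Bcl3, Socs3, Tyk2, Skil and Id3 have LPS arrays wholly above the controls.

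Of 14 measured genes of common gamma chain cytokines and receptors 0 passed in limma, with a median of 0.08. Before adjustment 1 had p under 0.05 and was higher, and 0 were lower, where 4.98% and 1.40% of all rows were. LPS lay wholly above control in 2 and wholly below in 0, where 7.74% and 3.48% of all rows did. The count of 1 is near that background. That gene was the receptor chain Il15ra, with 3.83 ± 0.27 and 4.49 ± 0.27 (SD, n = 3; limma adjusted p = 0.58). The receptor chain Il7r had 6.15, 6.35 and 6.48 in the controls and 6.41, 6.85 and 8.37 with LPS (limma adjusted p = 0.90). LPS replicate 3 alone was far above the rest, and the log2 fold change of 0.88 was 0.30 without it and 1.28 without LPS replicate 1. The cytokine Il15 had 6.33 ± 0.84 and 6.22 ± 0.34, and the transcription factor Stat5b 5.77 ± 0.63 and 6.07 ± 0.24 (SD, n = 3; adjusted p = 1.00 for each). Il21, the ligand of the IL-21 receptor, was under the background limit, as was Il2.

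Of 13 measured microglia genes that depend on TGF-beta 0 passed in limma, and 5 had a mean above background. The median was -0.20, with 0 higher and 4 lower at an unadjusted p under 0.05, and LPS lay wholly below control in 5 and wholly above in 0. Over all rows 1.40% were lower and 4.98% higher at that p, and 3.48% lay wholly below and 7.74% wholly above. Of the 5 wholly below, P2ry12, P2ry13 and Fcrls had means of 3.65, 3.41 and 3.12, Fcrls close to the limit of 3.08. Gas6 at 2.59 and Gpr34 at 2.54 were under it. The phagocytic receptor Mertk had 6.60, 6.44 and 6.90 in the controls and 5.36, 6.21 and 6.92 with LPS, with overlapping groups (log2 fold change -0.48, SE 0.38, limma adjusted p = 0.99). It was -0.86 without LPS replicate 3 and -0.077 without LPS replicate 1. The fractalkine receptor Cx3cr1 had 3.75 ± 0.31 and 3.64 ± 0.12 (SD, n = 3; adjusted p = 1.00). The purinergic receptor P2ry12 was below every control on each LPS array, with values of 4.50, 3.51 and 4.10 against 3.14, 3.17 and 3.49 (-0.77, SE 0.27, adjusted p = 0.65), and the change was -1.03 without control replicate 2. Tmem119, Olfml3 and Sall1, which mark microglia in the brain, were under the background limit in this line.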

How the data were processed

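Expression was measured on 6 Affymetrix whole-transcript arrays of BV-2 cells, 3 control and 3 LPS. The deposited values are log2 expression per transcript cluster, and per the submitters' processing notes the program was Affymetrix Expression Console. Its version, background correction, normalization and summarization are not given in the sources used here, so fold changes near background may be too small. The scale was read from the values. Array medians lay between 2.88 and 2.97, and the number of arrays limits precision.

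Names came from platform annotation, which gave 1 symbol for 23521 rows, several for 1814 and none for 16010. Where a gene has several such rows, the one with the highest mean was used. LPS was compared with control by limma 3.58.1 in R 4.3.3 (lmFit, eBayes without trend, no covariate, no filter), adjusted by Benjamini-Hochberg over 41345 rows. Intervals are 95% moderated intervals. The fit was tested on simulated data, where 4 unchanged rows were called beside the shares given. Array values were compared, and no pair of arrays shared more than 23 equal values.

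All 10 listed genes were to be named, with up to 4 called genes of each pathway list and otherwise the most abundant until 3 were named. The genes, lists and alternatives were chosen with earlier results of these data known. Lists rest on textbook roles. List entries without a row of their own are not analysed here. Promoter sequences are from RefSeq (GRCm38.p6) and were matched by symbol.

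Alternatives were array weights, the replicate number as a block, leaving out single arrays or control replicate 2 with LPS replicate 3, median centring, quantile normalization, a filter on dim rows, rows with 1 symbol, 1 row for each gene, and eBayes with trend and robust estimation.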

Additional observations from a re-analysis of the deposited data

How the results depend on the processing

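None of the 9 members passed under any of 15 alternatives, with a lowest adjusted p of 0.40 over 133 values, and 3 members, Il10rb, Il13ra1 and Il10, kept their sign in all. Over all rows, 132 passed with array weights and 219 (152 higher, 67 lower) with control replicate 2 and LPS replicate 3 left out, and from 15 to 82 with 1 array left out. With both arrays left out, 1 TGF-beta gene (Id3) and 1 IL-4 gene (Arg1) passed. With 1 array left out, called genes ran from 0 to 1 for the IL-10, TGF-beta and IL-4 lists. Signs turned after quantile normalization for Tgfb1 (-0.012) and Tgfbr1 (-0.070), with array weights for Il21r (-0.027) and Id2 (-0.21), and with both arrays left out for Tgfb1 (-0.030), Tgfbr1 (-0.13), Il4ra (-0.0033), Id2 (-0.64) and Furin (-0.18). With 1 array left out, log2 fold changes ran from -0.41 to 0.089 for Il10ra, -0.17 to 0.34 for Tgfb1, -0.11 to 0.22 for Tgfbr1, -0.15 to 0.12 for Tgfbr2, -0.11 to 0.14 for Il21r, -0.12 to 1.00 for Zfp36, -0.35 to 0.076 for Itgav, -0.49 to 0.66 for Id2, -0.24 to 0.55 for Furin, -0.59 to 0.16 for Il15 and -0.053 to 0.53 for Stat5b. Changes in the balance of 2 genes ran from -0.19 to 0.48 for Il4ra minus Il13ra1, -0.56 to 0.14 for Il10 minus Il10ra and -0.066 to 0.23 for Tgfb1 minus Tgfbr1. The cause of these turns was not tested. Same-numbered arrays of the groups deviated with Pearson's r of 0.15, -0.31 and -0.31 over 19060 rows. Control replicate 2 and LPS replicate 3 had 0.36. Shifts of single arrays enter these values, so they cannot tell whether the numbers pair the arrays. With the replicate number as a block, 7 rows and 0 genes of the IL-10 list passed. Signal near background limits what Il10 and Il21r can show.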

Other observations

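LPS replicate 3 stood apart from the other LPS arrays for single genes of these pathways, chosen after their values were seen. Ccl22, a chemokine that IL-4 induces in macrophages, was at 4.95 on that array and at 2.91 and 2.74 on the other LPS arrays, with controls between 2.57 and 2.70. Mgl2, a lectin of alternatively activated macrophages, was at 3.92 there, near the controls (3.89 to 4.18), and at 2.60 and 2.06 on the other LPS arrays. Neither passed with 6 arrays, with limma adjusted p = 0.95 for Ccl22 and 0.70 for Mgl2.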
